A study of Mus musculus with 6 samples.

Results

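The mitochondrial ribosomal protein genes were taken as every row of the count table whose symbol is Mrpl or Mrps followed by a number, with an optional letter. This rule used names and no measured value. It found 77 genes of 24421, of which 48 carry the large subunit prefix Mrpl and 29 the small subunit prefix Mrps. The cells were primary neural stem cells from E13.5 mouse embryos, kept as neurospheres in medium with EGF and FGF2 at 20 ng/ml each and 20% oxygen, and lysed on day 4 after dissociation. WT cells, labelled as the control, gave 3 libraries and Pml knockout cells gave 3 libraries, with no further allele, agent or strain named in the labels. Pml encodes the protein that builds nuclear bodies. Polyadenylated transcripts were counted from 3′ tags. The labels name no separate culture or embryo behind each replicate, so a p-value here reflects how far 6 libraries scatter, and that scatter could be technical.

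Mitochondria keep a ribosome of their own, which makes the few proteins encoded by mitochondrial DNA, all of them core subunits of the respiratory chain and the ATP synthase. The small subunit holds the mRNA and reads its codons, and the large subunit joins the amino acids and is tethered to the inner membrane, into which the products are inserted. All of its proteins are encoded in the nucleus, made in the cytosol and imported. Some have counterparts in bacterial ribosomes and others are found only in mitochondria.

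Library totals lay between 1775152 and 5917505 reads, with WT replicate 2 the shallowest. The WT libraries were unlike each other. Rn45s, the 45S pre-ribosomal RNA row, took 41.9%, 39.8% and 19.6% of reads in WT replicates 1, 2 and 3 and from 14.6% to 17.6% in the knockout libraries. All 16 hepatocyte markers were detected, and their summed level was 407, 588 and 116 CPM in the WT libraries against 52.6 to 81.5 CPM in the knockout libraries. CPM here is the read count scaled to the size of its library with edgeR's trimmed mean (TMM) factors. Neural stem cell markers, 12 of 12 detected, summed to 6293 to 8708 CPM in WT against 7708 to 9395 CPM in the knockout, so the labelled cell type was present in every library. Microglial, endothelial, erythroid and mesenchymal lists each summed to at most 62.2 CPM in any library, with the microglial marker Tmem119, the endothelial markers Cdh5, Tek and Cldn5, all adult and embryonic globins listed, and Lum at 0 everywhere. Neuronal markers overlapped between genotypes, at 461 to 656 CPM in WT against 569 to 604 CPM in the knockout. Oligodendrocyte markers overlapped too but varied widely between libraries, at 116 to 742 CPM against 163 to 701 CPM. DESeq2 called 1 oligodendrocyte marker higher, where it called 0.928% of all genes, and the authors' deposited table called 1, beside 1.13%. Pml itself had 36, 35 and 44 reads in WT against 14, 23 and 5 in knockout cells (log2 fold change -2.81, SE 0.661, edgeR adjusted p 0.197, DESeq2 adjusted p 0.00341), and its adjusted p in the authors' deposited table was 0.00302. The labels do not say which part of the gene was removed, so a 3′ tag may lie outside it.

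Outside Rn45s, transcripts of the mitochondrial ribosomal proteins took up a smaller share of the reads in each knockout library than in any WT library, for both subunits. Of all reads, Rn45s included, the groups overlapped, at 0.417%, 0.384% and 0.546% in WT replicates 1, 2 and 3 against 0.461%, 0.395% and 0.476% in the knockout. Of the reads outside Rn45s, the 77 genes held 0.717% (95% Clopper-Pearson interval 0.707 to 0.728) in WT replicate 1, 0.639% (0.624 to 0.654) in replicate 2 and 0.679% (0.670 to 0.688) in replicate 3. In knockout replicates 1, 2 and 3 they held 0.559% (0.553 to 0.566), 0.463% (0.457 to 0.470) and 0.570% (0.563 to 0.577). These intervals cover counting error only. On this denominator the groups did not overlap, and knockout replicate 2 was the lowest of the 6. Large subunit genes summed to 3643, 3560 and 3356 CPM in WT against 2774, 2213 and 2699 CPM in the knockout, which is 3519 ± 148 against 2562 ± 305 (SD, n = 3 each). Small subunit genes summed to 1837, 1896 and 1521 CPM in WT against 1331, 1033 and 1271 CPM in the knockout, or 1752 ± 201 against 1212 ± 157. In bulk RNA, fewer cells that express a gene and less RNA of it per cell cannot be told apart. No test was made of these sums, since the genes were chosen with earlier results of these data known.

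**Figure D1:**
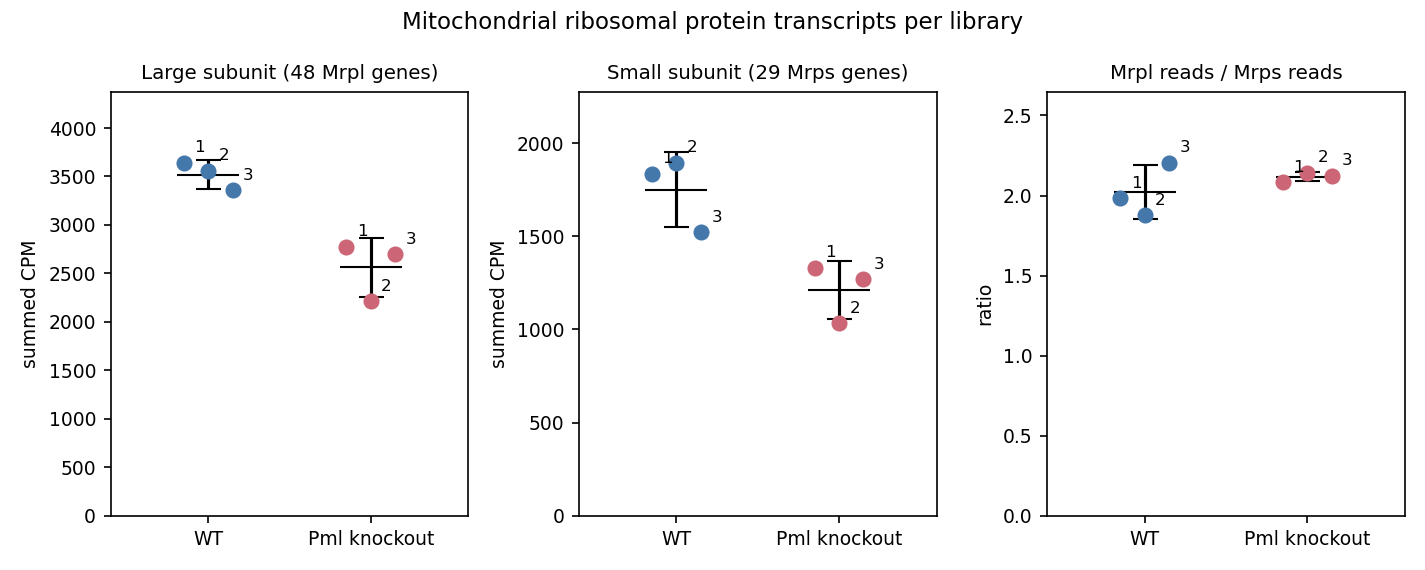
Summed CPM of the large (Mrpl) and small (Mrps) subunit genes and the ratio of Mrpl to Mrps reads in each library, all axes starting at 0. Numbers are replicates and lines are group means with SD error bars (n = 3). The knockout sums all lie below the WT sums (TMM factors), while the ratio spans 1.88 to 2.21 in WT with the knockout inside it at 2.08 to 2.14.

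The balance between the subunits was similar in both genotypes. The ratio of summed Mrpl to summed Mrps reads does not depend on library scaling. It was 1.98, 1.88 and 2.21 in WT replicates 1, 2 and 3, and 2.08, 2.14 and 2.12 in the knockout libraries. The knockout values fell inside the WT range. On the log2 scale the means were 1.01 ± 0.118 and 1.08 ± 0.0197 (SD, n = 3 each), a difference of 0.07 that is smaller than the within-group SD of 0.0847. Symbols follow an older naming that misplaces a few proteins: Mrps18a and Mrps30 sit in the large subunit, and Mrps36 works in the 2-oxoglutarate dehydrogenase complex. Moving the first pair to the large subunit and leaving out Mrps36 gave log2 ratios of 1.16, 1.06 and 1.28 in WT against 1.22, 1.26 and 1.23 in the knockout, again with overlap.

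Gene by gene, the fitted differences were mostly below 0, and no single gene passed the test. Of the 77 genes, 75 passed edgeR's filter on low counts. Both exceptions were rare in these cells: Mrps18b had 6, 4 and 2 reads in WT against 5, 3 and 3 in the knockout, and Mrps28 had 10, 0 and 6 against 8, 8 and 19. By edgeR's quasi-likelihood test with Benjamini-Hochberg adjustment over 11317 genes, 0 of the 75 passed higher (0.00884% of all tested genes did) and 0 passed lower (0.0% of all genes), with 0.208 as the smallest adjusted p. Unadjusted p was under 0.05 for 25 genes that were lower, 33.3% of the 75, against 9.19% of all tested genes, and for 2 that were higher, Mrpl27 and Mrpl9, against 6.7%. All 3 knockout libraries lay below all 3 WT libraries for 28 genes, 37.3%, against 11.3% of all genes. They lay above for 3, Mrpl27, Mrpl9 and Mrps21, against 12.3%. The fitted log2 fold change was below 0 for 59 of the 75, against 50.3% of all tested genes.

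The median log2 fold change was -0.43 for the 48 tested Mrpl genes and -0.38 for the 27 tested Mrps genes, against -0.01 for all tested genes. By subunit, 39 Mrpl (81.25%) and 20 Mrps genes (74.1%) were fitted below 0, against 50.3% of all tested genes. On the lower side, 14 (29.2%) and 11 (40.7%) had an unadjusted edgeR p under 0.05, against 9.19% of all genes. Knockout libraries were all below WT for 18 (37.5%) and 10 (37.0%), against 11.3% of all genes. Relative to the median of all genes the medians were -0.42 and -0.37 with TMM factors. With plain library totals, which count Rn45s, they were 0.063 and 0.085, while the median of all genes moved to 0.43, so relative to it they were -0.37 and -0.35. Scaling moves all genes nearly alike, so the relative values are bound to stay close and are no check of the result, while the sign of the plain median depends on the scaling.

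**Figure D2:**
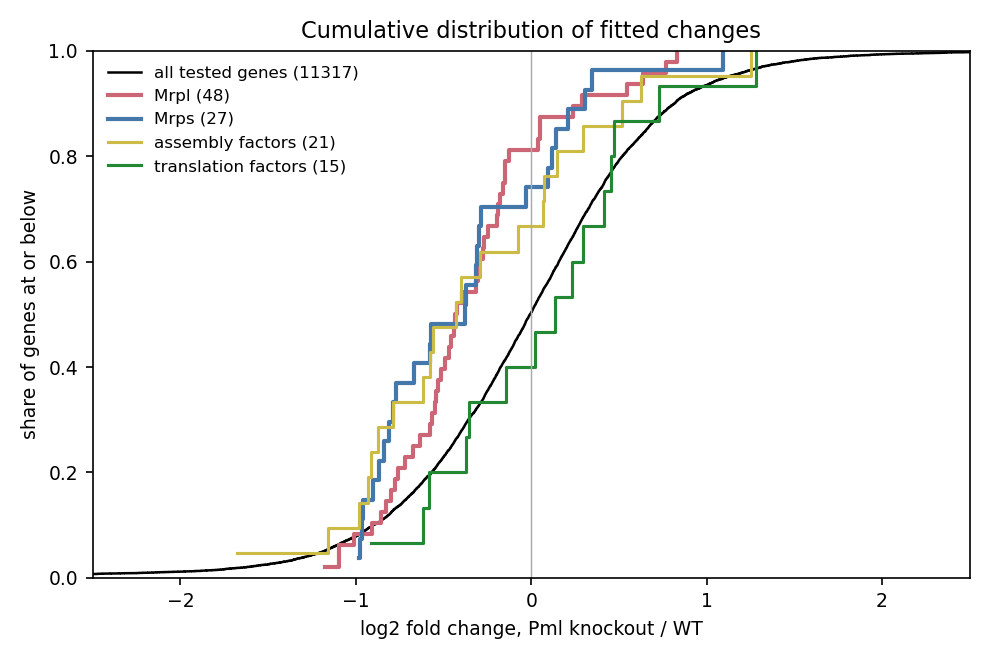
Cumulative distribution of fitted log2 fold changes (Pml knockout over WT, TMM factors) for tested Mrpl genes, tested Mrps genes and all 11317 tested genes. Further curves show the tested assembly factors and translation factors. The Mrpl and Mrps curves reach the middle of their range at -0.43 and -0.38, left of all genes at -0.01. With library totals these medians are 0.063, 0.085 and 0.43.

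Which tool and which libraries entered decided how many genes passed. DESeq2 called 0 higher and 3 lower, Mrpl12, Mrpl35 and Mrps25, where it called 0.928% and 1.97% of all genes. Limma voom called 0, and voom with library quality weights called 0 higher and 14 lower (4.36% and 6.73% of all genes). For voom without weights the share of all genes is not given here, so its 0 cannot be set against a background. Without WT replicate 3, edgeR called 1 higher, Mrpl23, and 13 lower (5.01% and 7.97% of all genes). In that fit WT is represented by the 2 libraries with the high Rn45s and hepatocyte values. In the authors' deposited table none of the 76 listed members passed, where 1.13% of all genes passed higher and 1.81% lower. The smallest adjusted p-values there were 0.0501 for Mrpl12 and 0.0508 for Mrpl35.

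Single libraries moved the counts in both genotypes. Relative to the WT mean, the median log2 level of the members was 0.07, -0.02 and -0.04 in WT against -0.22, -0.61 and -0.31 in knockout replicates 1, 2 and 3, where the median of all genes was 0.08, 0.09 and 0.06. Knockout replicate 2 was the lowest of the 6 libraries for 42 of the 75 tested genes. Without it, 6 genes in place of 25 had an unadjusted p under 0.05 on the lower side, where 4.1% of all genes did, and the medians were -0.30 (Mrpl) and -0.32 (Mrps). Without WT replicate 1 the count was 14, beside 6.26% of all genes, and the Mrps median was -0.17. Without knockout replicate 1 the count was 15, beside 6.03% of all genes. Without knockout replicate 3 it was 13, beside 4.92%, with a Mrps median of -0.58. The share of all genes also dropped with the members' count in these fits. With WT replicates 1 and 2 both left out, so that the remaining WT library has a Rn45s share near that of the knockout, the medians were -0.42 and -0.30. In that fit 23 genes were lower at an unadjusted p under 0.05, beside 7.37% of all genes, with the spread taken from the knockout libraries alone and the lone WT library assumed to vary like them. Of 26 named members, 7 changed sign there: Mrpl45, Mrpl34, Mrpl23, Mrpl44, Mrps15, Mrps36 and Mrps18c. The part of the Rn45s and hepatocyte reads in the results was not tested beyond these fits and the fits without the Rn45s row (24 genes, beside 9.16% of all genes) or the hepatocyte markers (25 genes, beside 9.13%).

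**Figure D3:**
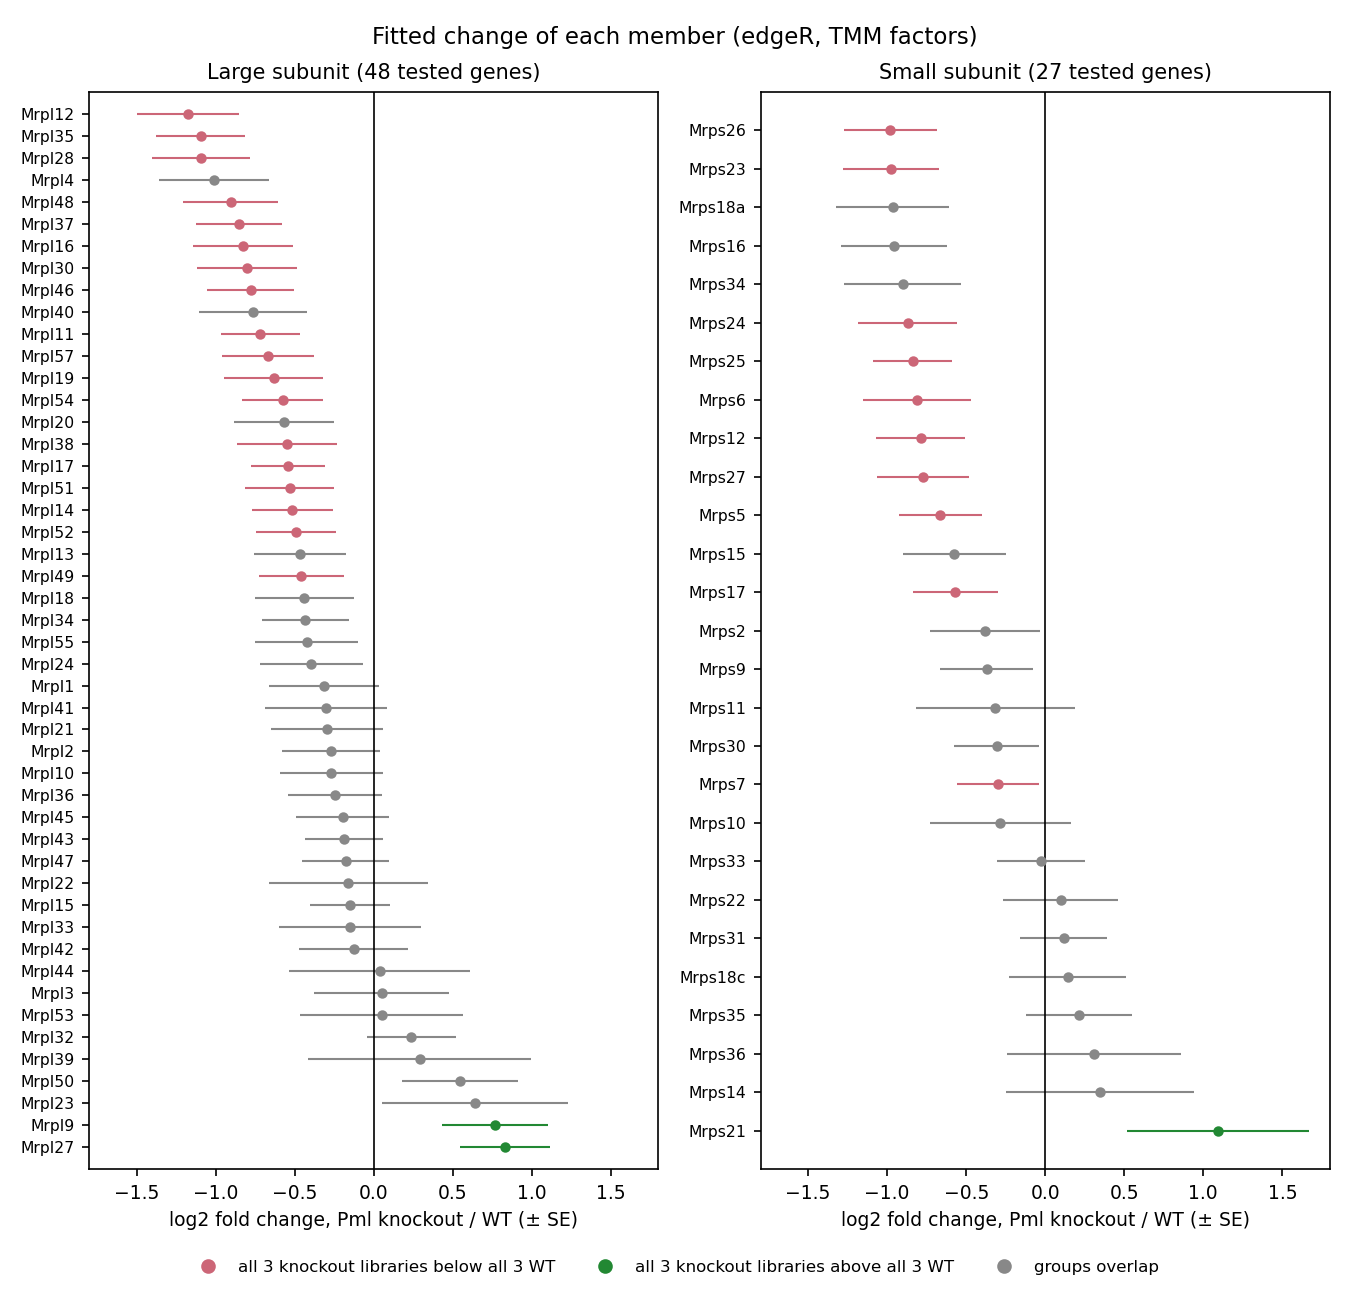
Fitted log2 fold change of each tested Mrpl (48) and Mrps (27) gene with its SE, from edgeR with TMM factors. Colours show whether all knockout libraries lay below (28 genes) or above (3 genes) all WT libraries or overlapped. Most points lie left of 0, and no gene passed at an adjusted p under 0.05. With library totals the Mrpl and Mrps medians are 0.063 and 0.085, against 0.43 for all genes.

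The stalk of the large subunit, where elongation factors dock, held the gene with the lowest fitted value. Mrpl12 (ENSMUSG00000039640.7, GRCm38 chr11:120484613-120489065, plus strand), the mitochondrial L7/L12 protein of the stalk, stood at 240, 241 and 150 CPM in WT replicates 1, 2 and 3 and 120, 61.7 and 97.1 CPM in the knockout libraries. All 3 knockout values were below the lowest WT value. The group means were 211 ± 52.4 and 93.0 ± 29.5 CPM (SD, n = 3 each), a log2 fold change of -1.18 (SE 0.322, edgeR adjusted p 0.212, DESeq2 adjusted p 0.0408). An exon of Gm16755 lies on the opposite strand within 500 bases of its 3′ end. Since the strand setting of the counting is not given in the sources used here, reads of the 2 genes cannot be told apart. Mrpl11, at the base of the stalk, also had non-overlapping groups, 94.1, 81.5 and 91.5 CPM against 57.6, 46.2 and 58.9 (log2 fold change -0.72, SE 0.251, edgeR adjusted p 0.240). Mrpl10, which anchors the Mrpl12 copies, overlapped at 41.4 ± 16.2 and 34.7 ± 3.49 CPM (-0.27).

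Proteins that reach towards the catalytic core, where peptide bonds form, were split. Mrpl4 had 91.1, 114 and 45.4 CPM in WT against 39.7, 37.1 and 46.4 CPM in the knockout (log2 fold change -1.01, SE 0.349, edgeR adjusted p 0.239). WT replicate 3 lay among the knockout libraries. Mrpl16 had 78.6, 132 and 71.3 CPM against 64.8, 44.2 and 48.5 with no overlap (-0.83, SE 0.315, edgeR adjusted p 0.255). Mrpl2 and Mrpl3 overlapped between genotypes, with log2 fold changes of -0.27 and 0.05.

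The central protuberance, which faces the small subunit and the tRNAs, held members on both sides. Mrpl48 stood at 63.7, 110 and 64.7 CPM in WT against 44.8, 37.1 and 44.0 CPM in the knockout (log2 fold change -0.91, SE 0.299, edgeR adjusted p 0.238). Mrpl46 stood at 46.6 ± 5.39 against 27.0 ± 3.38 CPM, also without overlap (-0.78), and Mrpl40 at 57.1 ± 11.1 against 33.5 ± 12.8 with overlap (-0.76). Mrpl27 (ENSMUSG00000024414.13, GRCm38 chr11:94653767-94660089, plus strand), the counterpart of the bacterial protein that reaches the peptidyl transferase centre, was on the other side. It had 22.3, 20.0 and 25.2 CPM in WT against 35.2, 40.1 and 45.8 CPM in the knockout. Every knockout library was above every WT library, by means of 40.4 ± 5.30 over 22.5 ± 2.61 CPM (log2 fold change 0.83, SE 0.285, edgeR adjusted p 0.239). Of the 7 tested genes of this region, 6 were fitted below 0 and their median was -0.55.

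Around the exit of the tunnel through which the new protein leaves towards the inner membrane, values of the 7 listed genes overlapped throughout. The median log2 fold change was -0.16, and 0 of 7 had an unadjusted p under 0.05 or non-overlapping groups. Of all tested genes, 9.19% were lower and 6.7% higher at that p, and 11.3% and 12.3% had groups apart. With such shares, 0 among 7 genes does not set this region apart from all genes. Mrpl45, which helps tether the ribosome to the membrane, was among the most abundant members, at 145, 215 and 124 CPM in WT against 175, 124 and 123 CPM in the knockout (-0.20, SE 0.292). Without WT replicate 2 its log2 fold change was 0.07, on the other side of 0. Summed over the 7 genes, levels were 385, 377 and 390 CPM in WT against 404, 308 and 357 CPM in the knockout. Knockout replicate 1 was the highest of the 6. The 3 stalk genes, by comparison, summed to 394, 353 and 276 CPM against 216, 140 and 189. Mrpl12 alone, the member with the lowest fitted value, held 240, 241 and 150 CPM of this against 120, 61.7 and 97.1. The stalk sums thus rest largely on 1 gene. The difference between these regions was not tested. Mrpl44 and Mrpl39, both on the tunnel list, had 3 and 2 reads in WT replicate 2, far below any other library, so their WT means depend on whether that library is counted.

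Among the other large subunit proteins, Mrpl35 had the smallest p of all 75 genes. Mrpl35 (ENSMUSG00000052962.3, GRCm38 chr6:71812997-71826969, minus strand), a protein with a bacterial counterpart, stood at 89.0, 104 and 65.8 CPM in WT against 44.7, 33.5 and 42.4 CPM in the knockout. The groups did not overlap, and the means were 86.2 ± 19.2 and 40.2 ± 5.92 CPM (log2 fold change -1.09, SE 0.283, edgeR adjusted p 0.208, DESeq2 adjusted p 0.0243). Mrpl28, another protein with a bacterial counterpart, stood at 103, 169 and 82.4 CPM against 54.0, 51.4 and 59.8 (-1.09, SE 0.310, edgeR adjusted p 0.219). Mrpl37, found only in mitochondrial ribosomes, stood at 87.5, 103 and 71.0 CPM against 43.2, 43.7 and 57.3 (-0.85, SE 0.272, edgeR adjusted p 0.231). In these 3 genes too every knockout library was below every WT library. Mrpl34, among the most abundant members, overlapped, at 207, 246 and 142 CPM against 149, 130 and 161 (-0.43).

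Mrpl9 was the other large subunit gene whose knockout libraries all lay above WT. Mrpl9 (ENSMUSG00000028140.13, GRCm38 chr3:94443318-94451130, plus strand) had 47, 11 and 52 reads in WT against 121, 123 and 144 in the knockout, or 14.0, 8.79 and 11.8 CPM against 18.2, 20.3 and 21.5 (log2 fold change 0.77, SE 0.335, edgeR adjusted p 0.304). Mrpl23, at the tunnel exit, had 23, 4 and 113 reads in WT against 135, 91 and 162 in the knockout. In CPM, WT replicate 3 was the highest of the 6 libraries and WT replicates 1 and 2 were the lowest (0.64, SE 0.588, edgeR adjusted p 0.609), and this was the gene called higher when that library was left out.

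**Figure D4:**
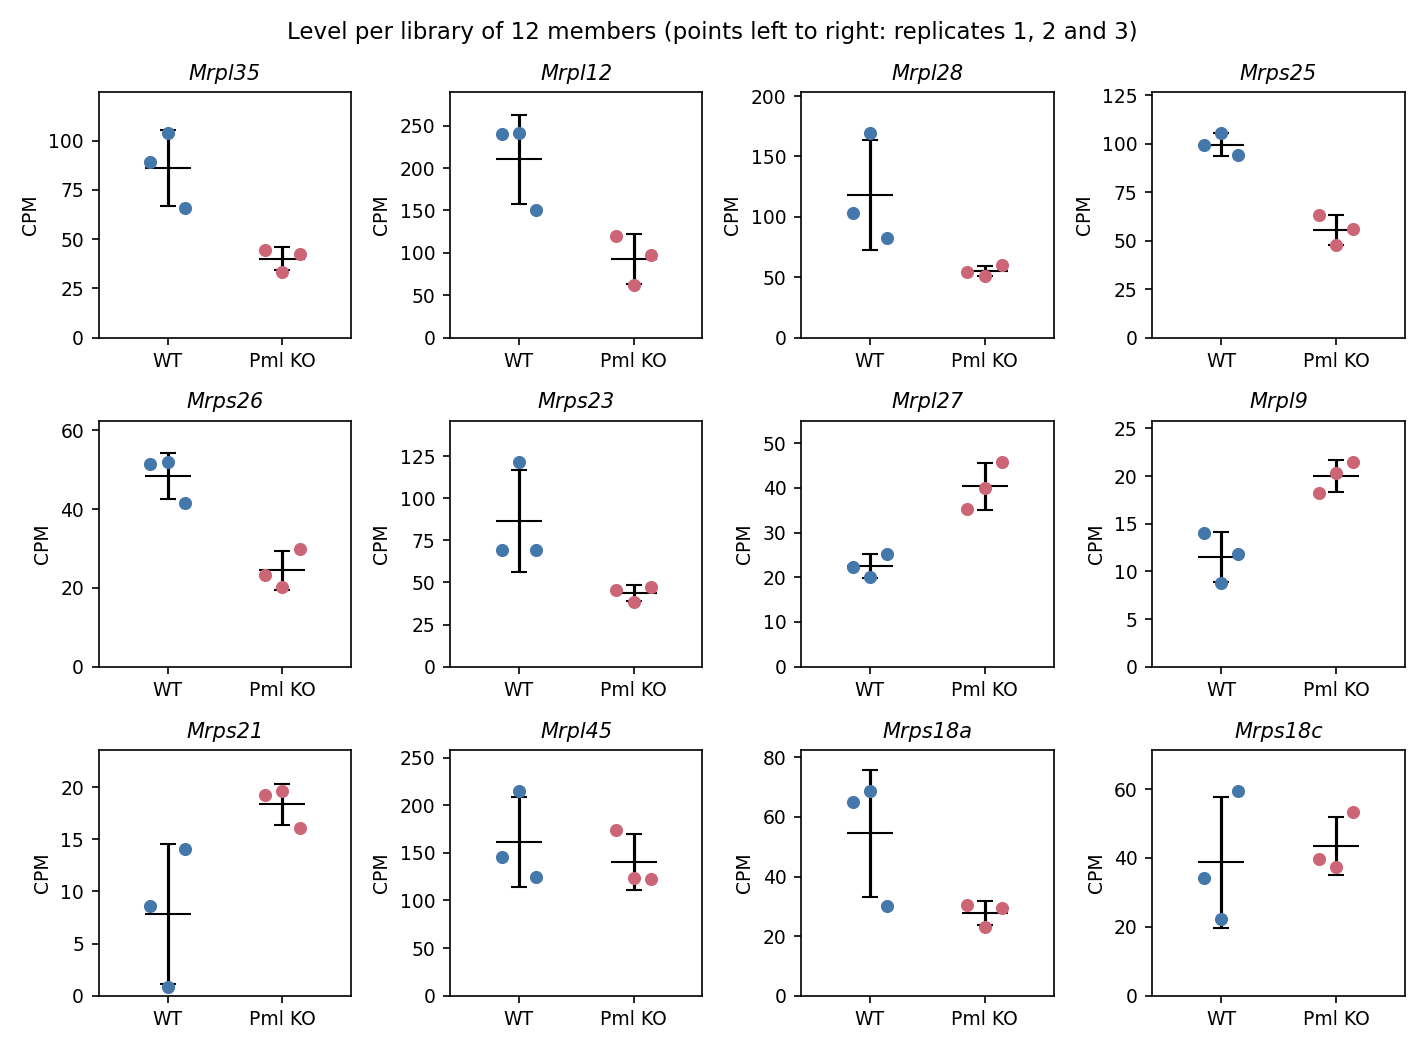
CPM with TMM factors in each library for 12 members, with points from left to right for replicates 1, 2 and 3 of WT and of Pml knockout, each axis starting at 0. Mrpl12 runs from 150 to 241 in WT against 61.7 to 120 in the knockout, while Mrpl27 runs from 20.0 to 25.2 and from 35.2 to 45.8. None passed at an edgeR adjusted p under 0.05.

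In the small subunit, the decoding site and the mRNA path are lined by proteins with bacterial counterparts. All 6 listed genes were fitted below 0, with a median of -0.52. Knockout libraries were all below WT for 4, 66.7% beside 11.3% of all genes. Mrps12, the counterpart of the bacterial protein at the decoding centre, stood at 58.6, 85.5 and 59.0 CPM in WT against 42.7, 33.5 and 40.6 CPM in the knockout (log2 fold change -0.79, SE 0.281, edgeR adjusted p 0.240). Mrps24 stood at 78.0, 99.9 and 57.7 CPM against 40.5, 33.0 and 54.6 (-0.87, SE 0.312, edgeR adjusted p 0.242). Mrps5, near the mRNA entrance, stood at 159, 161 and 120 CPM against 111, 77.3 and 88.6 (-0.67, SE 0.263, edgeR adjusted p 0.266). In these 3 genes no knockout library reached the WT range. Mrps7 also kept apart but by little, with a lowest WT value of 70.4 CPM and a highest knockout value of 70.3 CPM (-0.30). Mrps2 and Mrps11 overlapped.

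Of the small subunit proteins found only in mitochondria, 3 had the smallest p of the Mrps genes. Mrps25 (ENSMUSG00000014551.8, GRCm38 chr6:92169525-92184033, minus strand) stood at 99.1, 106 and 94.0 CPM in WT against 63.0, 47.7 and 55.9 CPM in the knockout. Its WT libraries were close together and well above all knockout libraries, with means of 99.5 ± 5.78 and 55.5 ± 7.70 CPM (log2 fold change -0.84, SE 0.250, edgeR adjusted p 0.220, DESeq2 adjusted p 0.0480). An exon of Nr2c2 lies on the opposite strand at its 3′ end, so reads of the 2 genes cannot be told apart here. Mrps26 (ENSMUSG00000037740.8, GRCm38 chr2:130563742-130568695, plus strand) stood at 51.5, 52.0 and 41.5 CPM against 23.2, 20.1 and 29.98 (-0.98, SE 0.292, edgeR adjusted p 0.220). Mrps23 stood at 69.1, 122 and 69.0 CPM against 45.6, 38.4 and 47.0 (-0.97, SE 0.303, edgeR adjusted p 0.228). Both were without overlap.

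The mitochondria-specific class of the small subunit had a median of -0.77 over 9 tested genes, 6 of them below 0. For small subunit proteins with a bacterial counterpart it was -0.38 over 15 genes, 12 of them below 0. In the large subunit the medians were -0.47 for 20 mitochondria-specific genes and -0.41 for 30 with a bacterial counterpart. In these classes Mrps18a and Mrps30 count with the large subunit. The difference between classes was not tested.

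Mrps6, at the platform of the small subunit, was the most abundant member. It stood at 215, 456 and 229 CPM in WT against 199, 131 and 181 CPM in the knockout (log2 fold change -0.81, SE 0.341, edgeR adjusted p 0.291). WT replicate 2 was far above the rest, and without it the log2 fold change was -0.37. Mrps16 had 121, 101 and 54.7 CPM against 58.5, 41.1 and 42.2 (-0.96, SE 0.336, edgeR adjusted p 0.240), where WT replicate 3 fell inside the knockout range. Mrps15, which binds the small subunit rRNA, overlapped at 100 ± 35.3 and 67.3 ± 16.2 CPM (-0.57). Without WT replicate 1 its log2 fold change was -0.26. Among the least abundant tested members, Mrps10 had 8.74 ± 3.62 and 7.43 ± 1.38 CPM and overlapped (-0.28).

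Mrps21 had the highest fitted log2 fold change of all members, and it rested on few reads. Mrps21 (ENSMUSG00000054312.6, GRCm38 chr3:95862634-95871519, minus strand), the counterpart of a bacterial small subunit protein, had 29, 1 and 62 reads in WT against 128, 119 and 108 in the knockout. That is 8.63, 0.799 and 14.1 CPM against 19.3, 19.6 and 16.1 (1.09, SE 0.576, edgeR adjusted p 0.377). WT replicate 2 gave a single read, and both other WT libraries also lay below the knockout. In that library 6 members stood lower, by more than 3 times, than in every other library: Mrpl39, Mrpl44, Mrpl53, Mrps14, Mrps21 and Mrps28. The same library was the highest of the 6 for 29 members.

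The 3 Mrps18 paralogues occupy 3 different places on the ribosome and stood at different values. Mrps18a, in the large subunit, had 64.9, 68.7 and 29.96 CPM in WT against 30.4, 23.1 and 29.5 CPM in the knockout. WT replicates 1 and 2 were above the rest, and WT replicate 3 lay with the knockout libraries (log2 fold change -0.96, SE 0.356, edgeR adjusted p 0.246). Mrps18c, in the small subunit, overlapped at 38.7 ± 18.9 and 43.5 ± 8.55 CPM (0.14, SE 0.368). Mrps18b, also in the small subunit, was not tested, at 1.81 ± 1.37 and 0.565 ± 0.164 CPM. Mrps30, in the large subunit despite its name, overlapped at 63.0 ± 10.7 and 51.1 ± 8.28 CPM (-0.31), and Mrps36, the dehydrogenase component, overlapped at 8.24 ± 5.00 and 10.2 ± 3.48 CPM (0.31).

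Mean levels over the 6 libraries ran from 1.19 CPM for Mrps18b to 235 CPM for Mrps6. A 3′ tag gives about 1 read per transcript whatever its length, so these levels can be set side by side without a length term, but they depend on how well each annotated 3′ end fits. The order below Mrps6 differed between genotypes. In WT the next means were 211 CPM for Mrpl12, 199 for Mrpl34 and 161 for Mrpl45, whose libraries overlapped. In the knockout they were 147 for Mrpl34 and 140 for Mrpl45, with Mrpl12 at 93.0.

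Other genes of mitochondrial translation did not share one direction, and 0 of 41 tested passed by edgeR. At an unadjusted p under 0.05, 5 were lower, 12.2% beside 9.19% of all genes, and 2 higher, 4.88% beside 6.7%, both near the background. DESeq2 also called 0, where it called 0.928% of all genes higher and 1.97% lower. Limma voom without weights called 0 too, but its share of all genes is not given here. With quality weights voom called 3 lower, where it called 6.73% of all genes. Ribosomal proteins without an Mrpl or Mrps name had a median of -0.69 over 5 genes. Gadd45gip1, a large subunit protein, had 138, 192 and 76.7 CPM in WT against 84.7, 55.7 and 58.9 CPM in the knockout (log2 fold change -1.02, SE 0.355, edgeR adjusted p 0.240), with WT replicate 3 inside the knockout range. Dap3, a GTP-binding protein of the small subunit, had 137 ± 67.5 and 78.2 ± 16.5 CPM (-0.79, edgeR adjusted p 0.317).

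Assembly factors and rRNA-modifying enzymes had a median of -0.43 over 21 tested genes, with 4 lower (19.0%, beside 9.19% of all genes) and 1 higher (4.76%, beside 6.7%) at an unadjusted p under 0.05. The groups did not overlap for 6 lower (28.6%, beside 11.3% of all genes) and 1 higher (4.76%, beside 12.3%). Ddx28, a helicase needed to assemble the large subunit, had 31.3, 24.8 and 20.4 CPM in WT against 14.4, 13.2 and 11.04 CPM in the knockout, without overlap (log2 fold change -0.98, SE 0.326, edgeR adjusted p 0.238). Mrm1, a methyltransferase of the large rRNA, had 13, 21 and 32 reads against 15, 16 and 22 (-1.68, SE 0.611, edgeR adjusted p 0.242). Its knockout CPM values were the 3 lowest. Translation factors had a median of 0.14 over 15 genes, with 0 lower and 1 higher (6.67%, beside 6.7%) at an unadjusted p under 0.05. The difference between these lists was not tested. Mtfmt, which formylates the initiator tRNA, had 11, 2 and 36 reads in WT against 89, 74 and 62 in the knockout, with no overlap in CPM (1.28, SE 0.538, edgeR adjusted p 0.291). Taco1, a translational activator, had 8.44 ± 3.06 and 4.43 ± 0.693 CPM (-0.91, edgeR adjusted p 0.375).

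All 77 genes matched a protein-coding gene of the GENCODE M21 annotation. They lie on 17 chromosomes, with 10 on chromosome 11. A protein-coding neighbour that starts within 1000 bases on the opposite strand, head to head, was annotated for 26 of them, 33.8%, against 9.53% of all protein-coding genes. In 24 such pairs both genes were fitted. Both were below 0 in 13, both above in 4, only the member was below in 6 and only the neighbour in 1. Of all tested genes 50.3% were fitted below 0. The pair of Mrpl46 and Mrps11 is made of 2 members. Whether pairs share a side more often than unlinked genes was not tested. The medians were -0.46 for the members and -0.15 for their neighbours.

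One pair includes the gene that passed the test across the whole table. Mrpl44 (ENSMUSG00000026248.9, GRCm38 chr1:79776018-79781445, plus strand), an RNase III-like protein of the large subunit, starts 125 bases from the start of Wdfy1, a FYVE-domain protein of endosomes, and the 2 genes overlap at their 5′ ends. Wdfy1 had 16, 9 and 37 reads in WT against 346, 324 and 348 in knockout libraries (log2 fold change 2.95, SE 0.336, edgeR adjusted p 0.0498). Mrpl44 had 83, 3 and 85 reads in WT against 79, 106 and 140 in the knockout (0.04, SE 0.572, edgeR adjusted p 0.980), with overlap. Mrpl54 and Apba3, an adaptor protein, are another such pair: Mrpl54 had 95.2, 88.7 and 103 CPM in WT against 67.4, 51.3 and 74.0 (-0.58, SE 0.258, edgeR adjusted p 0.313). Apba3 had 3, 0 and 6 reads in WT against 28, 66 and 76 in the knockout (3.20, SE 0.730, edgeR adjusted p 0.197). Pairs on the same side included Mrps12 with Sars2, the mitochondrial seryl-tRNA synthetase, at -0.79 and -0.97, and Mrpl36 with Ndufs6, a complex I subunit, at -0.24 and -0.81.

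**Figure D5:**
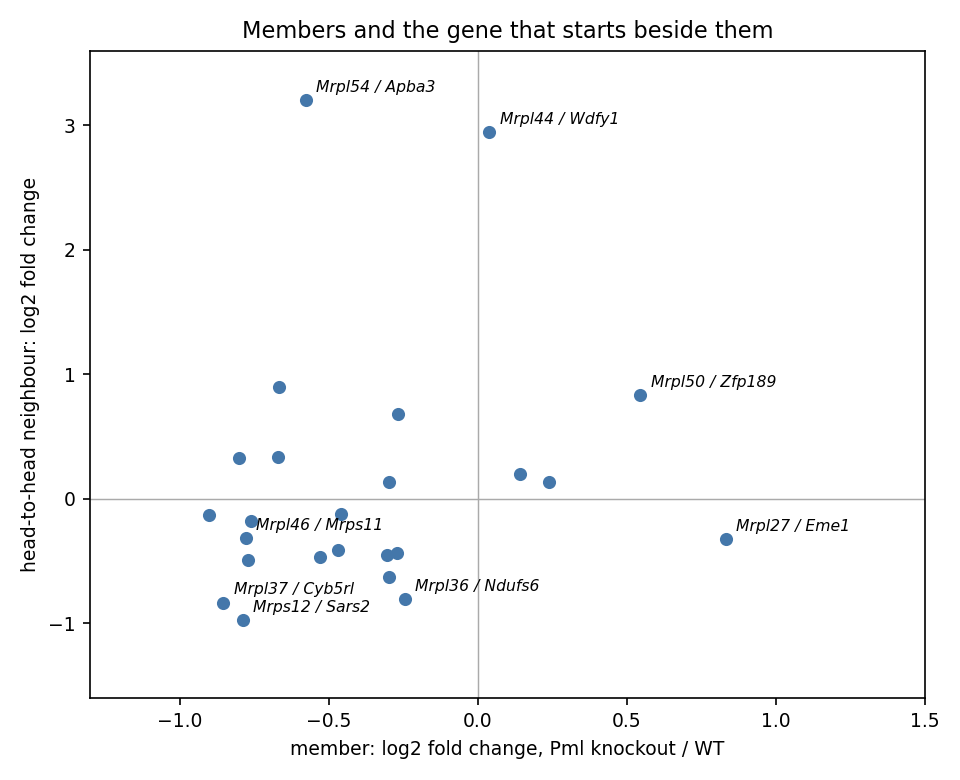
Log2 fold change (Pml knockout over WT) of members with a head-to-head protein-coding neighbour on the horizontal axis and of that neighbour on the vertical axis, 1 point per pair. In 13 of 24 pairs both are below 0, and whether pairs tend to share a side was not tested. Mrpl44 with Wdfy1 (0.04 and 2.95) and Mrpl54 with Apba3 (-0.58 and 3.20) stand far above the rest.

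The 250 bases before the RefSeq start of 68 of the 77 genes (GRCm38.p6) were searched for motifs of 3 factors known for genes of mitochondrial function: NRF1 (GCGCATGC), GABPA (CCGGAAG) and YY1 (AAGATGGC), on both strands. At least 1 motif was present in 25 of the 68, 36.8%, against 20.4% of the windows of tested genes and 10.4% of all windows of that length. For NRF1 the shares were 11.8%, 4.98% and 2.32%, for GABPA 23.5%, 14.6% and 7.05%, and for YY1 5.88%, 2.18% and 1.59%. NRF1 motifs were in 7 of 42 Mrpl windows and 1 of 26 Mrps windows. No match of one motif overlapped that of another among the 35 matches. Median GC content was 58.4%, against 60.8% for tested genes and 52.0% for all windows. The median number of CpG was 17, against 17 and 6. The shares of all windows thus come from windows of unlike base content, and the tested genes are the closer comparison. A match describes letters and is not evidence of binding. Of the 3 genes higher in every knockout library, Mrpl9 had NRF1 matches, Mrpl27 a GABPA match and Mrps21 none. A relation between motifs and direction was not tested. The windows of the 3 genes that DESeq2 called lower, which hold no match, are given 5′ to 3′ on the gene's strand, with motif letters of any window in capitals. With them are those of Mrps26, lower in every knockout library, with 1 GABPA match 14 bases before the start, and Mrpl9, higher in every knockout library, with overlapping NRF1 matches on both strands 28 and 26 bases before the start. The windows are Mrpl12 (chr11:120484387-120484636, plus strand), Mrpl35 (chr6:71823785-71824034, minus strand), Mrps25 (chr6:92184024-92184273, minus strand), Mrps26 (chr2:130563507-130563756, plus strand) and Mrpl9 (chr3:94443086-94443335, plus strand). The RefSeq start lies 24, 10, 15 and 18 bases inside the GENCODE gene for Mrpl12, Mrps25, Mrps26 and Mrpl9. For Mrpl35 it lies 3185 bases inside, so that whole window is within the GENCODE gene, whose longest span starts further upstream. The 2 starts differ by more than 200 bases for 15 of the 68 genes, and the motif counts describe windows before the RefSeq start only.
Mrpl12: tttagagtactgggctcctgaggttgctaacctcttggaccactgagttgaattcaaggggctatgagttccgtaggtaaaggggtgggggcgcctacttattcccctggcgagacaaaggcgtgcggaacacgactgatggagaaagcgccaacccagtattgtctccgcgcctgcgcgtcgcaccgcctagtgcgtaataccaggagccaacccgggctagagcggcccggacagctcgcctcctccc
Mrpl35: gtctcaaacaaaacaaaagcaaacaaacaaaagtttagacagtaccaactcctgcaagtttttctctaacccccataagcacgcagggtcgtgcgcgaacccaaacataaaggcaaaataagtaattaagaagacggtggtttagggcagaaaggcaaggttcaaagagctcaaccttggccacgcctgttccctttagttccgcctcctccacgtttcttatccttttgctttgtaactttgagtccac
Mrps25: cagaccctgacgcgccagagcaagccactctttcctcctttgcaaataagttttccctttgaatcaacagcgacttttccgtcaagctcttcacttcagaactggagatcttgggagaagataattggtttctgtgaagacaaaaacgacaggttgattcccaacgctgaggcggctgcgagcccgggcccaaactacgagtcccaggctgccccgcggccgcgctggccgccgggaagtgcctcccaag
Mrps26: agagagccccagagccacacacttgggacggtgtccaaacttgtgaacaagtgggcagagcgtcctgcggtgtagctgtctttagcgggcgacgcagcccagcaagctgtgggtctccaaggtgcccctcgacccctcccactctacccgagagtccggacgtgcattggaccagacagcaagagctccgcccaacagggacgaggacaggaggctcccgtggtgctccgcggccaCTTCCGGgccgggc
Mrpl9: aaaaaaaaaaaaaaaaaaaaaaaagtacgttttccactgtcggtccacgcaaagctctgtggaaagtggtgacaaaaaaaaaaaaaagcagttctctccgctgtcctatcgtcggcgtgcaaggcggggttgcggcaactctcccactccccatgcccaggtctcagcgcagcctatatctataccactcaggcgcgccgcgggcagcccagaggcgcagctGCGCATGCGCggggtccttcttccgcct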

How the data were processed

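Per the labels, libraries came from total RNA (integrity number over 7) through a QuantSeq forward 3′ tag kit, with 20 to 24 PCR cycles and a NextSeq 500 run. The submitters' processing notes name FastQC, HISAT2, HTSeq, edgeR and mm10 (GRCm38). Versions, annotation and strand setting are not given there. The deposited table holds raw whole-number read counts per gene. Per the file headers it also holds the authors' log2 fold changes and p-values, used only where named as theirs.

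Counts were fitted in R 4.3.3 with edgeR 4.0.16: robust quasi-likelihood test, TMM factors, and filterByExpr, which asks for a count of 10 and 15 in total. Pml knockout was set against WT over all genes, without covariates, at a threshold of 0.05 on p adjusted by Benjamini-Hochberg. The SE is the log2 fold change divided by the square root of F. Alternatives were 3 other scalings, 2 other filters, DESeq2 1.42.0, limma 3.58.1 (voom, with and without quality weights), a replicate block, the fits without Rn45s or hepatocyte genes, and fits with libraries left out. Library totals of 1775152 to 5917505 reads limit precision. The test was tested on simulated data with 11112 genes tested: 28 of 50 genes raised 4-fold and 35 of 49 lowered 4-fold were called, and 1 of 50 and 1 of 49 at 2-fold. Unused per-sample columns numbered 0.

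The members and gene lists were chosen with earlier results of these data known. Named members were, in each of Mrpl and Mrps, the 6 smallest p, the 3 highest and 3 lowest mean levels, the largest fitted rise and fall, all past the threshold, the Mrps18 paralogues, Mrps28, Mrps30 and Mrps36, plus the 2 smallest p in each pathway list and Pml. Members of a role or head-to-head pair were named beside these after their values were seen.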

Additional observations from a re-analysis of the deposited data

How the results depend on the processing

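Medians and ratios are descriptions. With library totals the Mrpl and Mrps medians were 0.063 and 0.085 (reversed in sign) and 0 genes were lower at an unadjusted p under 0.05. At that p, the number higher was 1 with no count filter, 1 by limma voom and 4 with voom quality weights. The shares of all genes at that p in these fits are not given here, so the counts cannot be set against a background. Genes lower at an adjusted p under 0.05 numbered 3 by DESeq2 and 14 with quality weights, which also gave a Mrps median of -0.54 (-0.57 relative to all genes) and called 3 other genes of mitochondrial translation. With WT replicates 1 and 2 both left out, the log2 ratio of Mrpl to Mrps in the knockout minus WT was -0.059.

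Leaving out each library in turn gave 6 to 27 genes lower and 0 to 4 higher at an unadjusted p under 0.05, and 0 to 13 lower and 0 to 1 higher at an adjusted p. The 6 came without knockout replicate 2, where 4.1% of all genes were lower at that p. The 13 and the 1 came without WT replicate 3, where 7.97% of all genes passed lower and 5.01% higher. For the 27 and the 4 the share of all genes is not given here. The Mrpl median ran from -0.50 to -0.30 and the Mrps median from -0.58 to -0.17 (relative to all genes, -0.49 to -0.29 and -0.58 to -0.17). The other genes of mitochondrial translation gave 0 to 5 calls. The 5, of which 4 were lower and 1 higher, came without WT replicate 3, beside 7.97% and 5.01% of all genes. The log2 ratio difference ran from 0.02 to 0.13.

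Same-numbered libraries correlated at -0.00254, 0.0667 and 0.188 in their deviations, so the numbers were not taken as pairs. With the replicate block 0 genes passed at an adjusted p, 20 were lower at an unadjusted p under 0.05, and the medians were -0.39 and -0.35. The share of all genes in that fit is not given here, so the 20 cannot be set against a background.

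At 3 libraries per genotype, 1 of 50 and 1 of 49 simulated 2-fold changes were called, which limits what a lack of calls shows. Low members depend on few reads, down to 0 in WT replicate 2. Neither independence of the replicates nor the strand setting is stated.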
